A study of Mus musculus with 8 samples.

Results

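Arrays numbered replicate 2 were compared with arrays numbered replicate 1 in undifferentiated mouse J1 embryonic stem cells, within each of 3 hairpin groups. The members are the 6 undifferentiated arrays among the 8 arrays of the series, chosen by the replicate numbers in the sample titles. They form 3 pairs: cells with a control hairpin (shControl), with Fbxl19 shRNA1 and with Fbxl19 shRNA2, each as replicate 1 and replicate 2. All were J1 cells grown without feeder cells on gelatin, in medium with serum and leukemia inhibitory factor, which holds the cells in the undifferentiated state. The hairpins were made to lower Fbxl19, an F-box protein whose CXXC zinc finger binds unmethylated CpG DNA. The arrays' annotation gives Fbxl19 no probe set, and the knockdown itself was not measured here. Titles and source names of the knockdown samples give Fbxl19, whereas the free-text descriptions of some name other Fbxl genes, and the former were followed. The pair on day 4 of differentiation was left out of the comparison and is given beside it. The labels do not say what a replicate number stands for, nor whether replicates were separate cultures. The p-values therefore speak of the spread among these 6 arrays, part or all of which may be technical.

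Many of the genes with the largest differences are targets of hypoxia-inducible factor (HIF). When oxygen is ample, prolyl hydroxylases of the Egln family mark the HIF alpha subunits, and the VHL ubiquitin ligase has them degraded. When oxygen or iron is short, the alpha subunits pair with Arnt and bind short DNA motifs. They then activate genes for glycolysis, iron and blood supply, collagen maturation and the turnover of mitochondria, and also the hydroxylase genes Egln1 and Egln3. Embryonic stem cells rely strongly on glycolysis for energy.

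The promoters of 4 HIF target genes that were higher in replicate 2 are shown as examples, and each holds the motif that HIF reads. They are not the 4 largest rises. Each window holds 300 bases, most of them upstream of the transcription start, like every promoter searched, and the letters are RefSeq's for GRCm38.p6. Capitals mark ACGTG on either strand, so that the other strand's match reads CACGT. The palindrome CACGTG, an E-box, holds the motif on both strands. Bnip3, at chr7:138909457-138909756 on the minus strand, encodes a mitochondrial protein that promotes mitophagy. Ddit4, at chr10:59951721-59952020 on the minus strand, encodes an inhibitor of mTORC1. Egln3, at chr12:54203825-54204124 on the minus strand, encodes a HIF prolyl hydroxylase. P4ha1, at chr10:59323046-59323345 on the plus strand, encodes a subunit of collagen prolyl hydroxylase.
Bnip3: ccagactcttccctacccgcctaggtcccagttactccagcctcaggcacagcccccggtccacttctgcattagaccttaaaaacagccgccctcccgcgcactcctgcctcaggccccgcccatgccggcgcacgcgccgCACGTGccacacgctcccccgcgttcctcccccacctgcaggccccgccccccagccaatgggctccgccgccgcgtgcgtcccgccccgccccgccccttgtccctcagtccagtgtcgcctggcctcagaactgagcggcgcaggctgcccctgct
Ddit4: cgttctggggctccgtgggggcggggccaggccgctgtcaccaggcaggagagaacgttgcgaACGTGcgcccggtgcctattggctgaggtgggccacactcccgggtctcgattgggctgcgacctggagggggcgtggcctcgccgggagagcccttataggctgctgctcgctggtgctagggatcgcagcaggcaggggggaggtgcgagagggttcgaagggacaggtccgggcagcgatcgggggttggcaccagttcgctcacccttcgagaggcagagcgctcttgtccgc
Egln3: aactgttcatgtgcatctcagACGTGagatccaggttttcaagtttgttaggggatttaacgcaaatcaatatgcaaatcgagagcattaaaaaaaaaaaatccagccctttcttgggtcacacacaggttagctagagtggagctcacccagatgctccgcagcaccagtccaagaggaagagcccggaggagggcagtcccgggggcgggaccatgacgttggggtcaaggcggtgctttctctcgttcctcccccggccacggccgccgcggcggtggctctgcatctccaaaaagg
P4ha1: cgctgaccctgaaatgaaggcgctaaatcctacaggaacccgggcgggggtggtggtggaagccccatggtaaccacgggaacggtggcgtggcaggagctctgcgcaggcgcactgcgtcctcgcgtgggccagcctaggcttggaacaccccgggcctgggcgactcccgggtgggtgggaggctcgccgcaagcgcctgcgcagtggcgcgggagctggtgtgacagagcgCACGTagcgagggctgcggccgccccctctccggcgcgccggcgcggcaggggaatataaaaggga

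Bnip3 carried 1 such E-box, that is 2 overlapping matches, and the other 3 promoters carried 1 match each. Over all 32851 promoters in the table, 19.6% held ACGTG. Among promoters of the genes tested the share was 23.4%, and among those of all genes called higher it was 25.9%. It was 52.6% of the 78 promoters of the HIF target and glycolysis genes described below. It was 12 of 17 promoters (70.6%) for those of them that were called higher in replicate 2. These 17 promoters belong to 15 of the 18 genes so called. The lists hold known HIF targets and were chosen with results of these data known, so a high share there is partly built in. Genes called higher that stood in neither list had the motif in 18.2% of 99 promoters. The promoters of the HIF targets Adm and Stc2 in the table had no ACGTG match. Bhlhe40 and Ndrg1, which rose more than Adm, had no promoter there. The related GCGTG was found in 32.4% of all promoters, in 45.3% of those of genes tested and in 51.7% of those of genes called higher. It was in 59.0% of the 78 promoters of HIF target and glycolysis genes and in 14 of the 17 (82.4%) that were called higher. The promoters of Adm and Stc2 both held GCGTG. A match is a description of the letters and shows no binding.

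Bnip3 was higher in replicate 2 in every pair. Its log2 level was 7.55 and 9.31 in shControl replicates 1 and 2, 9.25 and 11.13 in shRNA1, and 9.16 and 10.74 in shRNA2. All 3 replicate 2 arrays lay above all 3 replicate 1 arrays, although the control replicate 2 was only just above the hairpin replicate 1 arrays. The mean difference of the pairs was 1.75 ± 0.10 (moderated SE, 3 pairs), or 3.36-fold, with a limma adjusted p of 0.000178. In such bulk RNA a change in the share of cells that express a gene and a change in RNA per cell cannot be told apart. Differences are replicate 2 minus replicate 1 on the log2 scale throughout, and a gene was called where the Benjamini-Hochberg adjusted p over 12394 genes was under 0.05.

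Ddit4 was measured at 7.82 and 8.78 in shControl replicates 1 and 2, 9.34 and 10.48 in shRNA1, and 9.86 and 10.58 in shRNA2. Each replicate 2 was the higher array of its pair, but the control replicate 2 lay below the hairpin replicate 1 arrays, so the replicate numbers overlapped. The mean difference was 0.94 ± 0.11, or 1.92-fold (limma adjusted p = 0.00579). The plot of levels by replicate number shows these pairs.

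**Figure D1:**
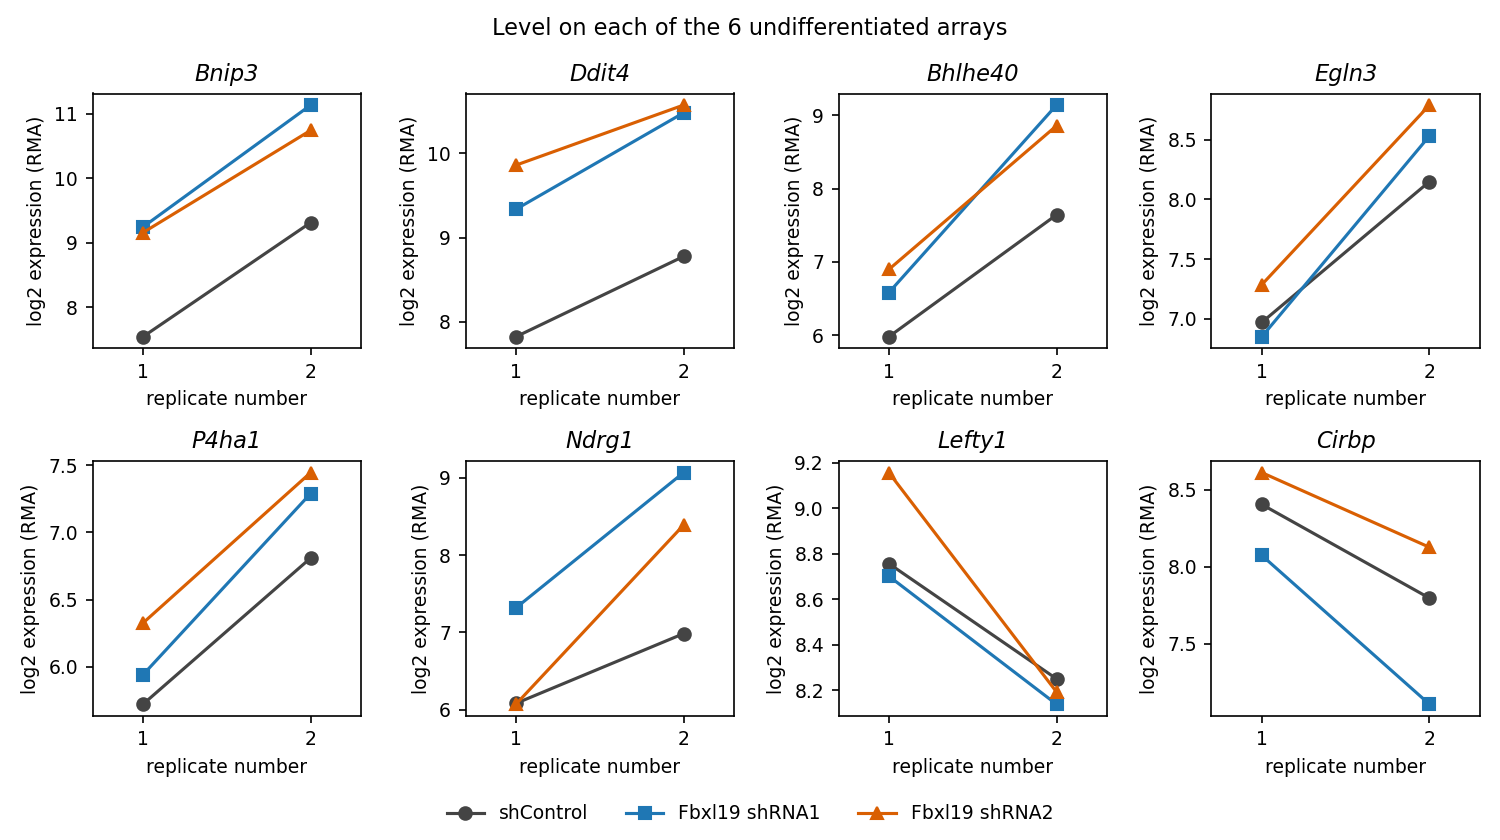
Log2 expression (RMA) of 8 genes on the 6 undifferentiated arrays, by replicate number. Each line joins the 2 arrays of a group. Bnip3, Ddit4, Bhlhe40, Egln3, P4ha1 and Ndrg1 go up in each of the 3 groups and Lefty1 and Cirbp go down. Bnip3 runs from 7.55 to 9.31 in shControl and from 9.25 to 11.13 in shRNA1.

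In all, 112 of 12394 genes (0.904%) were called. Of these, 107 (0.863%) were higher in replicate 2 and 5 (0.0403%) were lower. All 112 moved the same way in all 3 pairs. Over all genes, 22.5% were higher in replicate 2 in all 3 pairs and 14.5% were lower in all 3. Arrays did not overlap between replicate numbers for 75 of the 107 and 3 of the 5. Over all genes, that held for 8.96% in the higher and 5.54% in the lower direction. The call itself picks steady differences on these 6 arrays, so the higher shares among called genes are partly built in. Changes of 2-fold or more were seen for 16 genes that rose and 1 that fell, and 28 of the 112 changed by less than 1.5-fold. The difference had a median of 0.01 over all genes, and 52.8% of genes lay above 0. An unadjusted p under 0.05 was reached by 1727 genes.

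The count depended strongly on the scaling and on the pairs used. It was 25 after a repeated quantile normalization and 14 after each array was centred on its median, and all of these were among the 112. Without the shControl pair it was 7, of which 5 were among the 112: Anxa2, Ccng2, Krt19, Adm and Egln3, all with an adjusted p of 0.0434. With the day 4 pair added it was 2, namely Egln3 and Egln1. With no term for the group it was 0 by limma, with 1013 genes at an unadjusted p under 0.05. The balance of directions moved too. With trend and robust settings 281 genes were higher and 40 lower, without the shRNA1 pair 100 and 20, and without the shRNA2 pair 119 and 46. Each fit without a pair had 1 residual degree of freedom. The prior degrees of freedom were 3.27 without the shControl pair and infinite without either hairpin pair. Counts from these fits are therefore not on an equal footing. The differences of both marker genes moved less than the calls. Bnip3 kept a difference of 1.74 without the shControl pair (adjusted p = 0.0597) and Ddit4 of 0.93 (adjusted p = 0.133).

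The shControl pair stood apart in its distribution. Its median difference over genes was 0.08, against -0.003 and -0.01 in the shRNA1 and shRNA2 pairs, and its differences had an SD of 0.312, against 0.205 and 0.223. On shControl replicate 2 the quartiles were 3.79, 5.81 and 8.18, wider apart than on any other array of the series. The 3'-to-5' difference of actin, a sign of RNA quality, ran from 0.60 to 0.73 in replicate 1 and from 0.54 to 0.76 in replicate 2, with overlap. The median of the 12 poly-A control probe sets was lower in replicate 2 in each pair. It was 7.32 and 7.23 in shControl replicates 1 and 2, 7.15 and 6.96 in shRNA1, 7.13 and 7.01 in shRNA2, and 7.44 and 7.04 on day 4. The part of these values in the results was not tested. The stem cell label fits its markers: Pou5f1 lay between 12.31 and 12.57 on the 6 arrays and Nanog between 11.54 and 11.70. The feeder-type markers Col1a1 and Col3a1, from a fibroblast list of 17 genes, were at 3.56 to 3.96 and 2.87 to 3.66, near or under the lower quartile. Pdgfrb of the same list was at 4.53 to 5.99, above the lower quartile of each array, and was called higher in replicate 2.

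Of 46 listed HIF targets outside glycolysis 40 were measured, and 14 of them rose and 0 fell. Over all genes 0.863% were called higher and 0.0403% lower. Differences lay above 0 for 35 of the 40, and their median was 0.33, beside 0.01 for all genes. The pairs gave medians of 0.35 in shControl, 0.41 in shRNA1 and 0.29 in shRNA2. The list's members were chosen with results of these data known, so its count is a description. After quantile normalization 10 members were called, after centring 6, and without the shControl pair 3. The median was 0.30, 0.27 and 0.38 in those settings, and that of the glycolysis list below was the higher of the 2 after quantile normalization and without the shControl pair.

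The transcriptional repressor Bhlhe40 (DEC1), a HIF target that also acts in the circadian clock, had the largest rise. Its level was 5.98 and 7.64 in shControl replicates 1 and 2, 6.58 and 9.14 in shRNA1, and 6.90 and 8.86 in shRNA2. The replicate numbers did not overlap. The mean difference was 2.06 ± 0.15, or 4.17-fold (limma adjusted p = 0.000712). Ndrg1, a gene of stress response and differentiation, rose by 1.66 ± 0.21 (adjusted p = 0.00669). Its pairs were unequal, with 0.90 in shControl, 1.75 in shRNA1 and 2.32 in shRNA2. The control replicate 2, at 6.98, lay below the shRNA1 replicate 1, at 7.32, so the replicate numbers overlapped. Ndrg1 lost its call after quantile normalization, after centring and with trend and robust settings (limma adjusted p = 0.0924, 0.0998 and 0.158). The gene's other 4 probe sets gave 0.42 to 1.91.

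Of the 3 oxygen-sensing hydroxylases of the Egln family, Egln3 and Egln1 rose. Egln3 was at 6.97 and 8.15 in shControl replicates 1 and 2, 6.85 and 8.53 in shRNA1, and 7.28 and 8.79 in shRNA2. Every replicate 2 array lay above every replicate 1 array. The mean difference was 1.46 ± 0.12 (limma adjusted p = 0.00097), and a further probe set of the gene gave 1.23. Egln1, the main oxygen sensor of the pathway, was at 6.66 and 7.45 in shControl, 6.82 and 7.88 in shRNA1, and 6.68 and 7.63 in shRNA2. It rose by 0.93 ± 0.10 (adjusted p = 0.00408), its arrays did not overlap, and its further probe set gave 0.85. Their relative Egln2, which is not a usual HIF target, was not called, with a difference of -0.10.

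The remaining regulators of the pathway showed no called change. Of 18 listed regulators 16 were measured, and Egln1 and Egln3 were those called. Hif1a, the alpha subunit itself, had a difference of -0.21 ± 0.10 (limma adjusted p = 0.394) and was lower in all 3 pairs. Its other 3 probe sets gave -0.05 to -0.005. Epas1, which encodes HIF-2 alpha, was at -0.10, and Hif3a was at 0.23, with a negative value in the shControl pair. The partner subunits Arnt and Arnt2 gave 0.09 and -0.22. Vhl gave 0.12, and its ligase partners Elob, Eloc and Cul2 gave 0.08, -0.04 and 0.18. The coactivator Crebbp gave 0.19 and its competitor Cited2 0.06. Siah1a and Siah2, ligases that act on the Egln proteins, gave 0.07 and 0.32. Further probe sets had the opposite sign for Hif3a (-0.31 and -0.01), Arnt2 (0.17), Cul2 (-0.25) and Cited2 (-0.14). Those of Siah1a gave 0.17 and -0.02, and those of Arnt, Elob, Eloc and Siah2 kept the sign. HIF is set mainly through the stability of its alpha proteins, which these arrays do not measure.

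Both subunits of collagen prolyl hydroxylase in the HIF target list rose. P4ha1 was at 5.72 and 6.81 in shControl replicates 1 and 2, 5.94 and 7.29 in shRNA1, and 6.33 and 7.45 in shRNA2. P4ha2, the sister subunit, was at 5.38 and 6.42, 5.67 and 6.82, and 6.06 and 7.12 in the same order. For both, all replicate 2 arrays lay above all replicate 1 arrays. The differences were 1.19 ± 0.10 for P4ha1 (limma adjusted p = 0.00102) and 1.08 ± 0.10 for P4ha2 (adjusted p = 0.00105). A dimmer probe set of P4ha1 gave 0.43. Plod2, a collagen lysyl hydroxylase, rose by 0.59 ± 0.10 (adjusted p = 0.0294). Lox, which crosslinks collagen and is also a HIF target, was at -0.40 and was not called (adjusted p = 0.196).

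Secreted and metabolic targets were among the called genes as well. Adm, which encodes the vasodilator peptide adrenomedullin, was at 3.46 and 4.35 in shControl replicates 1 and 2, 4.03 and 5.76 in shRNA1, and 4.20 and 5.80 in shRNA2. It rose by 1.41 ± 0.15 (limma adjusted p = 0.00364) from a level near the lower quartile of the arrays. Stc2, a secreted glycoprotein, was at 5.76 and 7.09, 5.90 and 6.79, and 6.76 and 7.56. It rose by 1.01 ± 0.12 (adjusted p = 0.00579), with its largest difference, 1.33, in the control pair. The arrays of both genes were without overlap. Also called were Pfkfb3 (0.86), which makes the activator of phosphofructokinase, Ero1a (0.79), an oxidase of protein folding, and Ppp1r3c (0.66), a glycogen-targeting subunit. Further probe sets of Pfkfb3 and Ppp1r3c gave -0.15 and -0.06. The replicate 1 mean of Ppp1r3c, 3.64, was under each array's lower quartile.

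Some well-known HIF targets were not called, here picked after their values were seen. Vegfa, the angiogenic growth factor, had a difference of 0.94 with an adjusted p of 0.074 in limma. It was 1.30 and 1.37 in the hairpin pairs and 0.15 in the control pair. Kdm3a, a histone demethylase, was at -0.28 and lower in all 3 pairs. Angptl4, Hilpda and the transferrin receptor Tfrc gave -0.11, -0.06 and -0.03. With Lox and Kdm3a, these were the 5 measured members below 0.

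**Figure D2:**
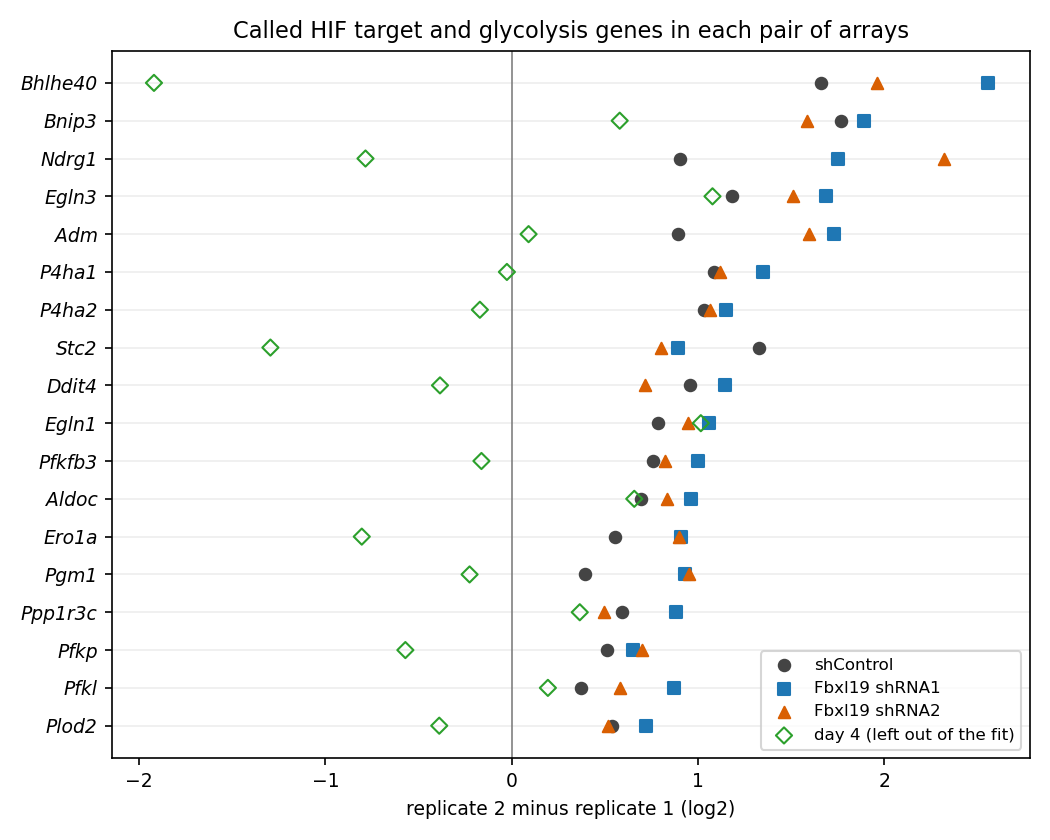
Difference between replicate 2 and replicate 1 (log2, horizontal axis) of the 18 called HIF target and glycolysis genes (vertical axis), with 1 symbol per pair of arrays. Filled symbols are the 3 undifferentiated pairs and the open diamond is the day 4 pair, which was not in the fit. All filled symbols lie above 0, as the call requires a steady difference. The day 4 symbols lie on both sides of 0, from -1.92 for Bhlhe40 to 1.08 for Egln3.

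Of 25 listed glycolysis and glucose uptake genes 23 were measured. Of these, 4 rose and 0 fell, beside 0.863% and 0.0403% of all genes. The 4 were Aldoc, Pgm1, Pfkp and Pfkl. Differences lay above 0 for 21 of the 23. Their median was 0.31, with 0.29, 0.37 and 0.37 in the shControl, shRNA1 and shRNA2 pairs. None of the 4 calls held after quantile normalization, after centring or without the shControl pair, while the median there was 0.34, 0.25 and 0.39. With trend and robust settings 12 members were called higher, and with the dimmest genes left out 7 of 22.

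The aldolase gene Aldoc was at 7.04 and 7.74 in shControl replicates 1 and 2, 8.03 and 8.99 in shRNA1, and 7.65 and 8.49 in shRNA2. The control replicate 2 lay below the shRNA1 replicate 1, so the replicate numbers overlapped. The difference was 0.83 ± 0.10 (limma adjusted p = 0.00602). A second probe set at 2.62, far below the lower quartile, gave 0.07. The phosphofructokinases Pfkp and Pfkl, which set the pace of glycolysis, rose by 0.62 and 0.61, and phosphoglucomutase Pgm1 by 0.76. The monocarboxylate exporter Slc16a3 (0.66), the glucose transporter Slc2a1 (0.49), Tpi1 (0.48) and Pgk1 (0.44) had adjusted p of 0.0726, 0.107, 0.0633 and 0.0836 and were not called. With every probe set tested, the other 2 of Slc2a1 gave 0.63 and 0.74 (limma adjusted p = 0.0367 and 0.0204), and a further one of Tpi1 gave 0.59 (adjusted p = 0.0419), all under the threshold. Gapdh, among the brightest genes of the pathway, gave 0.06, 0.07 and 0.05 in the 3 pairs. Pdk1, which diverts pyruvate from mitochondria and is a classic HIF target, was at -0.85 in shControl but 0.17 and 0.42 in the hairpin pairs. No oxidative phosphorylation subunit was called among 53 measured, beside 0.904% of all genes. Their median was 0.05, and it was -0.005 after centring. The pairs differed, with medians of 0.21 in shControl, -0.002 in shRNA1 and 0.004 in shRNA2.

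**Figure D3:**
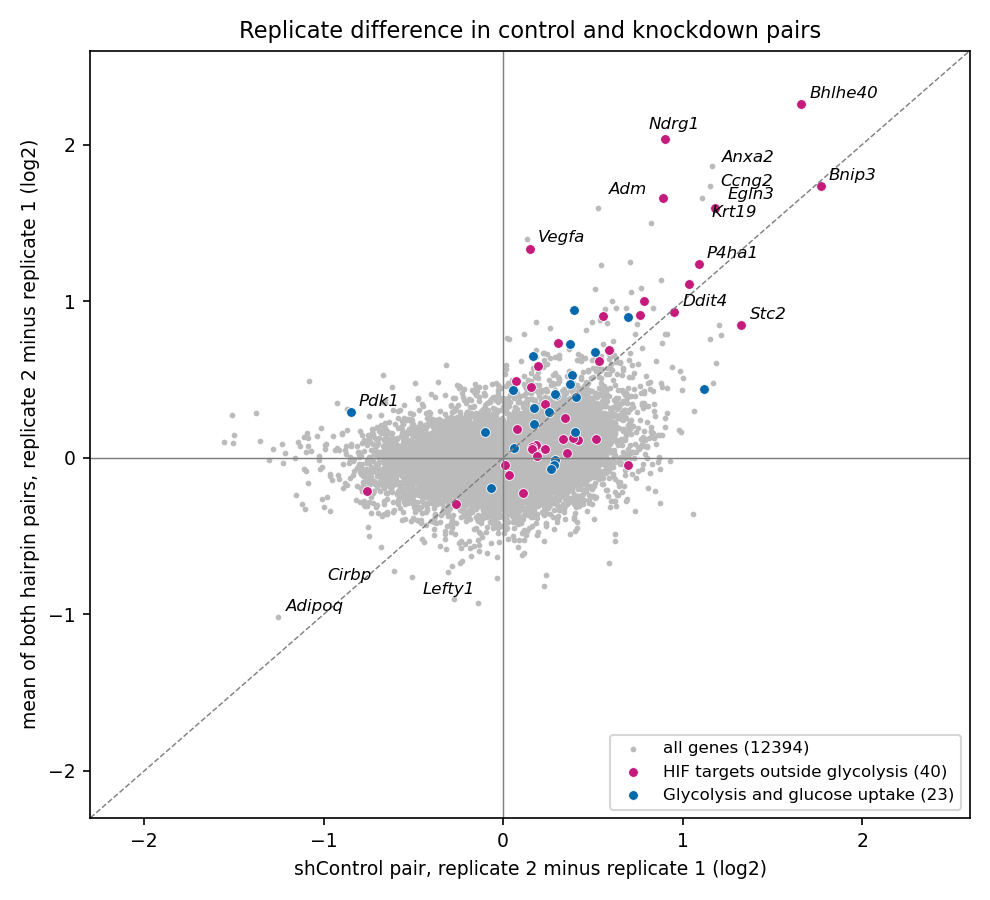
Difference between replicate 2 and replicate 1 (log2) in the shControl pair (horizontal axis) and averaged over both hairpin pairs (vertical axis), 1 point per gene for 12394 genes. The dashed line marks equal differences. HIF targets (40 genes) and glycolysis genes (23 genes) are coloured. Bnip3 lies near the line (1.77 in shControl). Vegfa lies above it (0.15 in shControl, 1.30 and 1.37 in the hairpin pairs) and Stc2 below it.

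Called genes outside those lists included several of the largest rises. Anxa2, a calcium-dependent membrane-binding protein, was at 5.77 and 6.93 in shControl replicates 1 and 2, 7.25 and 9.22 in shRNA1, and 6.79 and 8.55 in shRNA2. Each pair rose, while the control replicate 2 lay below the shRNA1 replicate 1. The difference was 1.63 ± 0.14 (limma adjusted p = 0.00105), but 2 dimmer probe sets gave 0.01 and 0.33. Ccng2, an unusual cyclin that accumulates in resting cells, was at 5.83 and 6.99, 6.71 and 8.34, and 6.24 and 8.08. It rose by 1.54 ± 0.13 (adjusted p = 0.00102) and its further probe set gave 0.99. Krt19, a keratin of simple epithelia, was at 4.93 and 6.04, 5.90 and 7.57, and 5.56 and 7.20. It rose by 1.48 ± 0.13 (adjusted p = 0.00102). The arrays of Ccng2 and Krt19 did not overlap between replicate numbers.

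Aoc3, an amine oxidase, was called with a difference of 1.28, from a replicate 1 mean of 3.32, under each array's lower quartile. Igfbp4, which binds insulin-like growth factors, was called at 1.24, and its other 5 probe sets ranged from -0.17 to 1.02. Of the 107 genes that rose, 18 belonged to the HIF target and glycolysis lists and 79 to no list.

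The 5 genes that fell were Adipoq, Cirbp, Lefty1, Il17d and Cyp1b1. Adipoq, the adiponectin gene, was at 5.59 and 4.33 in shControl replicates 1 and 2, 4.10 and 3.25 in shRNA1, and 4.96 and 3.79 in shRNA2. It fell in each pair, with overlap between the groups, by 1.10 on the log2 scale (SE 0.11, limma adjusted p = 0.00271). Both hairpin replicate 2 values lay under the lower quartile of their arrays, and the gene was not tested with the dimmest 30% left out. Cirbp, an RNA-binding protein that is induced by mild cold, was at 8.41 and 7.80, 8.08 and 7.11, and 8.61 and 8.13. It changed by -0.69 ± 0.12 (adjusted p = 0.029), again with overlap. Lefty1, a secreted inhibitor of Nodal, was at 8.76 and 8.25, 8.70 and 8.14, and 9.16 and 8.19. It changed by -0.68 ± 0.12 (adjusted p = 0.0297), and every replicate 2 array lay below every replicate 1 array. The cytokine gene Il17d (-0.61) and the cytochrome Cyp1b1 (-0.51) had further probe sets at -0.09 and at -0.15 and 0.03. The replicate 2 mean of Cyp1b1, 3.52, was under each array's lower quartile. Adipoq was the gene of these 5 that kept its call after quantile normalization or centring.

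The integrated stress response and amino acid supply list had a median of 0.23. It held 32 measured genes, of which 4 rose and 0 fell, beside 0.863% and 0.0403% of all genes. Nupr1, a stress-induced chromatin protein, was at 6.42 and 7.19 in shControl replicates 1 and 2, 5.55 and 6.39 in shRNA1, and 6.46 and 7.79 in shRNA2, with overlap. It rose by 0.98 ± 0.12 (limma adjusted p = 0.00706). Chac1, which degrades glutathione, rose by 0.86 ± 0.10 (adjusted p = 0.00579). The transaminase Gpt2 rose by 0.77 and the mitochondrial carboxykinase Pck2 by 0.60. Further probe sets of Nupr1, Gpt2 and Pck2 gave 0.94, 0.65 and 0.69, and 0.81. The factor Atf4 itself, chosen after its value was seen, was at 0.34 and was not called. None of these calls held after quantile normalization, after centring or without the shControl pair. The response element TGATGNAAT lay in 1 of 116 promoters of genes called higher, and in 0.518% of promoters of genes tested.

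Other lists held few calls, beside 0.863% of all genes called higher and 0.0403% called lower. A single call says little about a list of this length. In mitosis, 1 of 21 genes was called, the centromere protein gene Cenpf (0.50), and the list's median was 0.16. The proliferation marker Mki67 gave 0.49 with a limma adjusted p of 0.0569. Among immediate early genes, Dusp1 and Ier3 rose by 0.59 and 1.00 and 18 of 20 were not called. Eomes, of the mesendoderm list, rose by 0.64 and its further probe set gave 0.38. It was the 1 call among 11 measured genes of that list. Only 3 of the 11 lay above 0, and their median was -0.05. Stat2, the 1 call among 17 interferon genes, rose by 0.50, whereas its further probe set gave 0.04. Pdgfrb, the 1 call of the fibroblast list, rose by 1.07, whereas its further probe set gave 0.06. The fibroblast list's median was -0.06 over 17 genes.

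No gene was called among 26 pluripotency genes, which with 0.904% of all genes called says little about the list. Its median was 0.04, and -0.02 after centring. In that list Dppa3 had the largest difference, 0.51 (adjusted p = 0.065). No p53 target was called among 19, again beside 0.904% of all genes, with a median of -0.12 and values of -0.50 for Plk2 and -0.33 for Mdm2. Metallothioneins Mt1 and Mt2 gave 0.16 and 0.07, with a further probe set of Mt1 at -0.13. The zinc exporter Slc30a1 gave -0.59 (limma adjusted p = 0.0521).

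**Figure D4:**
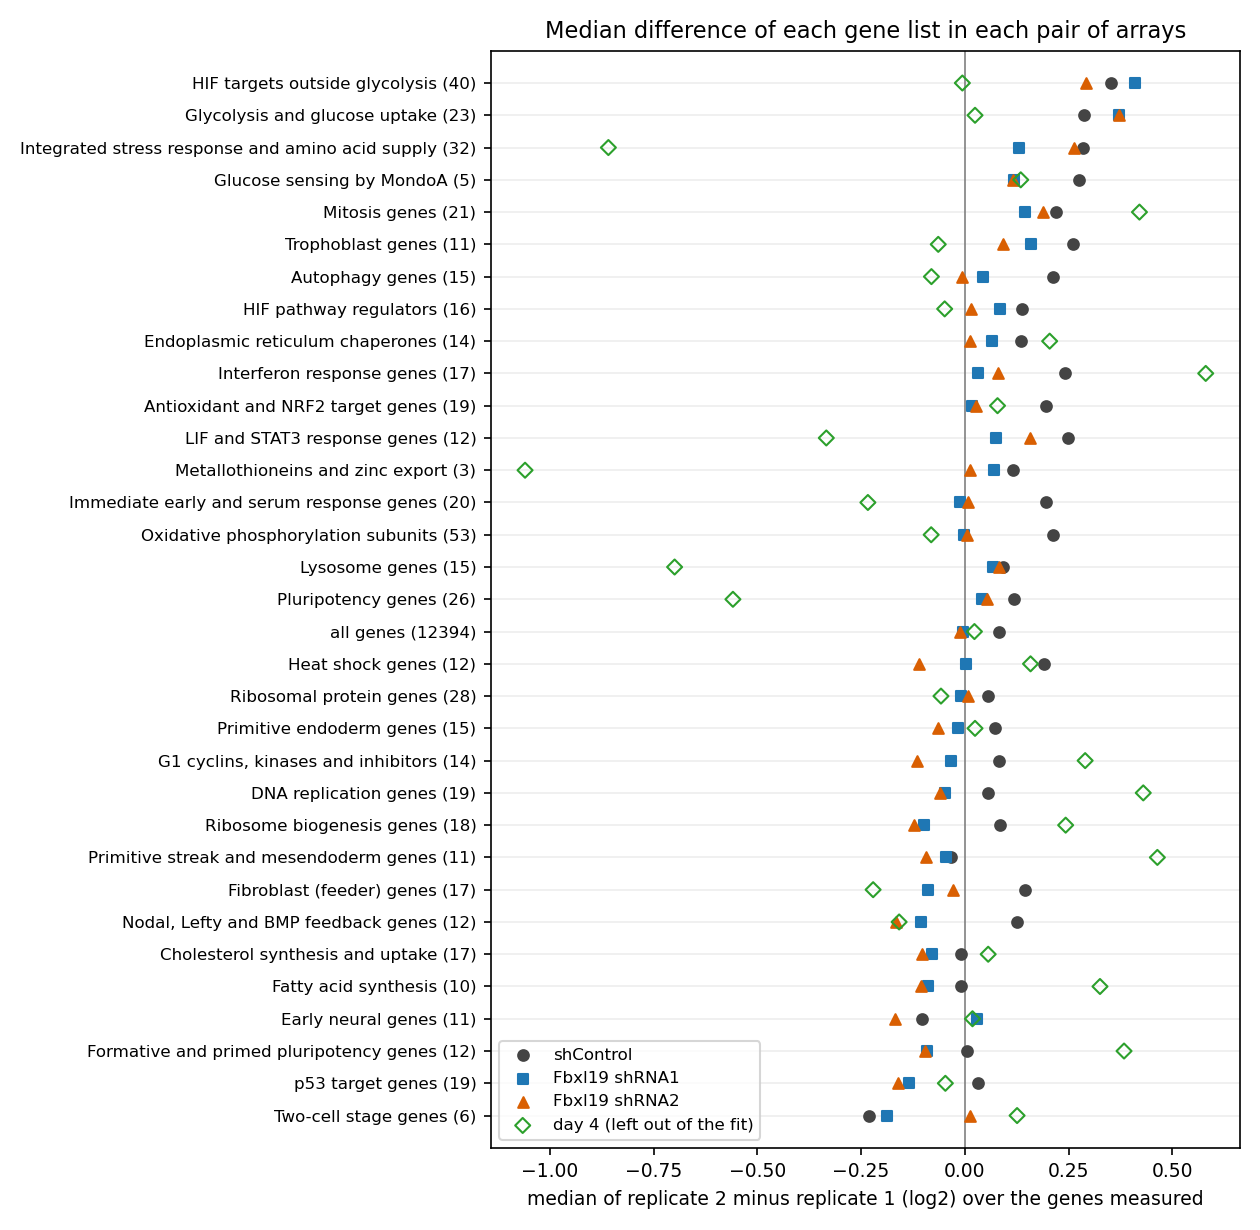
Median difference between replicate 2 and replicate 1 (log2, horizontal axis) of each gene list (vertical axis, with the number of genes measured), for each pair of arrays. Filled symbols are the undifferentiated pairs and the open diamond is the day 4 pair. HIF targets (0.35, 0.41 and 0.29) and glycolysis genes (0.29, 0.37 and 0.37) have the highest medians in the undifferentiated pairs. Their day 4 medians are -0.01 and 0.02.

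The size of the difference was compared between the control pair and the hairpin pairs. By limma with an interaction term, 0 of 12394 genes (0%) were called, with 3062 at an unadjusted p under 0.05 and 1 residual degree of freedom. The difference of Bnip3 was larger in the control pair by 0.03 ± 0.17 (adjusted p = 0.918) and that of Ddit4 by 0.02 ± 0.21 (adjusted p = 0.953). For Ndrg1 the control pair gave -1.13 ± 0.26 relative to the hairpin pairs (adjusted p = 0.174), and for Adm -0.77 ± 0.13 (adjusted p = 0.174). A p that misses the threshold here does not show that the pairs were alike.

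On day 4 the replicate numbers behaved differently. Bnip3 was at 9.39 and 9.97 in day 4 replicates 1 and 2, and Ddit4 at 9.63 and 9.25. Relative to the undifferentiated pairs, the difference was -1.17 ± 0.21 for Bnip3 (limma adjusted p = 0.0118) and -1.32 ± 0.22 for Ddit4 (adjusted p = 0.00932). In this test 695 genes (5.61%) were called, 46 of them among the 112. It assumes that the lone day 4 pair varies like the others, although the SD of its differences was 0.408. The 112 genes were called on the same undifferentiated pairs that this test subtracts, so their overlap with the 695 is partly built in. Of the 107 genes that rose in stem cells, 51 were higher in day 4 replicate 2, and their median there was -0.02. Over all genes 53.5% were higher. All 5 that fell were also lower on day 4, with a median of -0.48.

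The genes separated on day 4. Egln3 went from 6.70 to 7.78 and Egln1 from 6.97 to 7.98, about as in stem cells, whereas Bhlhe40 went from 8.36 to 6.44 and Krt19 from 7.81 to 5.96. Among the 112 genes, stress response genes had the largest opposite values, with Nupr1 at 8.57 and 4.74 and Chac1 at 8.44 and 5.72. The stress response list had a day 4 median of -0.86, against 0.28, 0.13 and 0.26 in the undifferentiated pairs.

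The replicate number also entered the comparison for which the series was made, both hairpins against shControl. Without a term for it, 54 of 12394 genes (0.436%) were called, 41 higher and 13 lower. With the replicate block, 241 (1.94%) were called, 165 higher and 76 lower, and all 54 were among them. Of the 241, 25 were also called between replicate numbers, against 0 of the 54. Over all genes, 0.904% were called between replicate numbers. Without the block, a replicate difference counts as spread within the groups, so a gene with a large one can hardly be called. The counts of 25 and 0 are thus partly fixed by the method. Both comparisons use the same 6 arrays and, with the block, the same residual spread.

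Bnip3 and Ddit4 were among the genes gained, and both were higher with the hairpins. The mean of both hairpins minus shControl was 1.64 for Bnip3, with an SE of 0.63 without and 0.11 with the replicate block. The limma adjusted p went from 0.35 to 0.000142. For Ddit4 it was 1.77, with SEs of 0.35 and 0.12 and adjusted p of 0.0945 and 0.000142. Anxa2 gave 1.60 (adjusted p = 0.335 and 0.00126). Among the genes gained in the lower direction, Adipoq gave -0.93, Uhmk1, a kinase gene, -0.89, and Ttc7b -0.76, with adjusted p of 0.00408, 0.00517 and 0.0134 with the block. Egln3 and Egln1, at 0.31 and 0.20, were called in neither fit. In the fit without the block, leaving out shControl replicate 1 or replicate 2 gave 0 calls by limma, with 3324 and 1657 genes at an unadjusted p under 0.05.

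**Figure D5:**
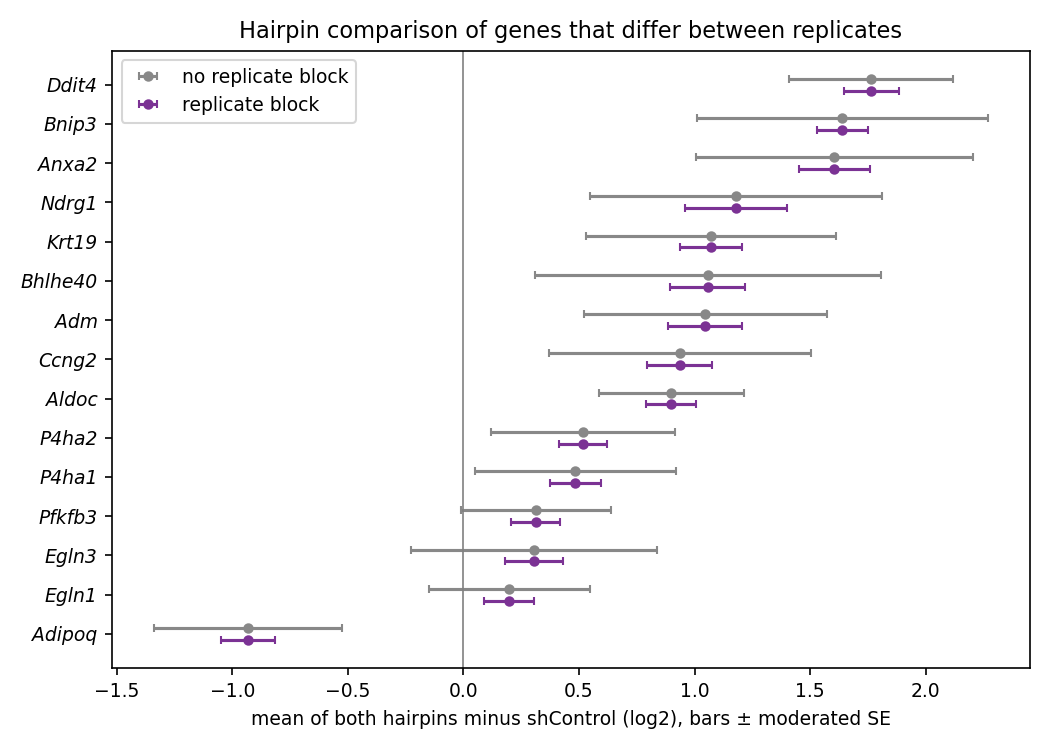
Mean of both hairpins minus shControl (log2, horizontal axis) for 15 genes called between replicate numbers, with bars of ± 1 moderated SE. Grey is the fit without and purple the fit with the replicate block. The values are the same and the bars shorten, for Bnip3 from 0.63 to 0.11. Egln3 and Egln1 lie nearest to 0.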

How the data were processed

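Total RNA of mouse J1 cells was measured on Affymetrix 430A 2.0 arrays, per the series' design text. The deposited values are log2 RMA levels of probe sets (RMA is named per the submitters' processing notes). The sources used here give neither its version nor which arrays were normalized with each other. A gene was read from its brightest probe set, by the mean of all 8 arrays, among 20393 probe sets with 1 gene symbol, giving 12394 genes. A model with a mean per group and a term for replicate 2 was fitted to the 6 undifferentiated arrays with limma 3.58.1 in R 4.3.3 (lmFit, eBayes; 2 residual and 7.83 prior degrees of freedom). The threshold was a Benjamini-Hochberg adjusted p of 0.05. The method was also run on simulated data. There a gene's noise was independent and of the same size on all 6 arrays, so the wider spread of the shControl pair was not covered.

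Members, gene lists and the naming rule were chosen with earlier results of these data known. The rule named Bnip3 and Ddit4, up to 12 called rises and 12 called falls by size, all HIF regulators, up to 8 HIF target and 8 glycolysis genes and up to 3 of each other list by size of difference, and up to 3 hairpin calls gained in each direction. The replicate numbers in the titles were taken to pair the arrays. Pair differences correlated across genes at 0.261 (shControl with shRNA1), 0.226 (shControl with shRNA2) and 0.504 (shRNA1 with shRNA2). The day 4 pair correlated at 0.070 with shControl, -0.022 with shRNA1 and -0.078 with shRNA2. Such a correlation is itself the replicate difference under test and is no separate support for the pairing. The number of arrays limits the precision. Alternatives were other probe set choices, a dim filter, eBayes settings, scaling, the day 4 arrays, the group and replicate blocks, and leaving out each array. The interaction tests and the scalings combined with the block were added after seeing the data. Promoters are RefSeq's, of GRCm38.p6.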

Additional observations from a re-analysis of the deposited data

Results flagged for a closer look

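The replicate difference of the day 4 pair differed from that of the 3 undifferentiated pairs for 695 genes by limma's interaction test. Among the named genes, the day 4 difference minus the undifferentiated one was -1.17 for Bnip3, -1.32 for Ddit4, -3.98 for Bhlhe40, -2.44 for Ndrg1, -2.93 for Anxa2 and -1.11 for Ccng2. It was -3.33 for Krt19, -1.31 for Adm, -1.21 for P4ha1 and -1.25 for P4ha2. For Adipoq it was 0.99, and its day 4 difference was -0.10 between 2 arrays that both lay below the lower quartile. Apart from the 2 markers, these genes were named for large differences in the undifferentiated pairs. The test subtracts those same differences, so values of the opposite sign are partly built in. The day 4 group has 1 pair, so its own spread was not measured.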

How the results depend on the processing

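The count of 112 genes was 175 with the dimmest 30% of genes left out, 321 with trend and robust settings, 25 after quantile normalization, 14 after centring, 2 with the day 4 pair and 0 with no group block. Leaving out an array gave 7 to 165. Leaving out either array of a pair removes the whole pair's information, and the values below 112 came from shControl. The prior degrees of freedom differed between these fits, so their counts are not on an equal footing.

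Bnip3 stayed positive in each of these settings. It was no longer called at 1.46 with the day 4 pair, 1.75 with no group block and 1.74 without shControl (range without an array 1.68 to 1.83). Ddit4 lost its call at 0.88 after centring, 0.61 with day 4, 0.94 with no group block and 0.93 without shControl (range 0.83 to 1.05). The HIF target median was 0.27 after centring. The glycolysis median was 0.25 after centring, 0.23 with day 4 and 0.27 to 0.39 without an array.

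The hairpin count of 54 was 94 with trend and robust settings, 9 with the day 4 arrays in the fit, 241 with the replicate block, 188 with the block after quantile normalization, 139 with the block after centring, and 0 to 69 without an array. In these data 2 arrays per group limit every call.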
